A study of Mus musculus with 70 samples.

Results

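The forebrain (FB) of newborn mice (P0) was compared with the FB of embryos at day 16.5 (E16.5) by H3K4me3 PLAC-seq, with 2 biological replicate libraries per stage. These 4 libraries were chosen by their labels, from 24 PLAC-seq libraries among 70 libraries in the series, and 12 of the 24 are FB libraries of 6 stages. The tissue of both stages was FB of C57BL/6N mice by the study's methods, which did not assess the sex of the embryos, and the labels give no treatment or transgene. The labels call the replicates biological and do not say whether they came from separate litters, so p-values measure only the spread between these libraries.

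H3K4me3 is a histone mark of active and poised promoters. PLAC-seq ligates DNA ends that lie close together in the nucleus and then pulls down fragments that carry the mark, so the read pairs report contacts of marked promoters. Distal enhancers reach promoters through such contacts, and CTCF, a DNA-binding protein that halts loop-extruding cohesin, sits at the ends of many of them, often with its motifs pointing at each other. Around birth the mouse cortex completes the production of its excitatory neurons, axons grow and find targets, and glial cells begin to be made.

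An interaction is a pair of 10-kb bins that the authors called at a false discovery rate (FDR) below 1%, with at least 2 times the expected count of read pairs and bins 20 kb to 1 Mb apart. The number of interactions of a gene is the number of called pairs with a bin that holds 1 of its transcription start sites (TSSs). A gene at 0 has no pair that passed the threshold, which does not show that it makes no contact, and no fold is given against 0. In bulk tissue, fewer cells with a contact and a weaker contact per cell cannot be told apart.

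The E16.5 libraries held 35291 and 36794 interactions and the P0 libraries 63868 and 42973. The numbers did not overlap between the stages, but replicate 1 of P0 stood well above the other 3 libraries. The mean rose from 36042.5 ± 1062.8 to 53420.5 ± 14775 (SD, n = 2 each), a ratio of 1.48, with an exact permutation p of 0.333 (two-sided), the smallest that 2 against 2 libraries can give. In the authors' pooled and downsampled calls, which use the same libraries at an equal number of usable reads, the numbers were 66050 and 79677. The calls rested on a median of 18 to 20 read pairs, and the smallest count was 6. Shares of calls carry counting error beside the spread between libraries. Of the E16.5 calls, 20787 were found in both replicates, 58.9% of replicate 1 and 56.5% of replicate 2. Of the P0 calls, 30683 were found in both, 48.0% of replicate 1 and 71.4% of replicate 2. The forebrain factor Emx2 had 65 and 70 interactions at E16.5 and 74 and 52 at P0, and Lhx2 had 78 and 89 and then 93 and 73, and both belong to the marker list of the labelled tissue. Of 8 markers of other tissues, 7 were among the autosomal genes read (Hox, En and Alb genes, of which Alb was at 0). These 7 summed to 29 and 20 interactions at E16.5 and 56 and 39 at P0, and Gata1 was not counted. The microglia markers Cx3cr1, P2ry12, Tmem119 and Csf1r, the endothelial markers Cdh5 and Kdr and the globin genes Hba-a1, Hba-a2, Hbb-bt and Hbb-bs were at 0 in all 4 libraries. The summed markers of these cell types stayed at 4 or fewer interactions per library for microglia, 6 or fewer for endothelial cells and 8 or fewer for erythroid cells.

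Among the genes with fewer interactions in newborn FB were several with known roles in brain development. Bcl11a, Cited2, Hmga2, Pcdh7, Flrt2, Fez1, Efna5, Epha4 and Gli3 had fewer called contacts in both P0 libraries than in either E16.5 library. More genes changed in the other direction, among them the receptor gene Npy2r, the ion channel genes Scn3b and Kcna4 and the mineralocorticoid receptor gene Nr3c2, and most of those had no called interaction at E16.5. Numbers were scaled to the median total of the 12 FB libraries (32119.5 interactions), and log2(scaled number + 1) was fitted with limma's trend option over all 12 libraries. Of 6646 genes with a mean scaled number of at least 1 in the 4 libraries, 134 rose (2.02%) and 25 fell (0.376%) at an adjusted p below 0.05. At an unadjusted p below 0.05, 574 were higher and 274 lower, and the median log2 difference over all genes was 0.12. Unscaled numbers moved by a median of 0.61 over 8146 genes, and there 612 genes rose (7.51%) and 19 fell (0.233%). All 134 genes that rose and 17 of the 25 that fell were also past the threshold unscaled.

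The spread for these tests was taken from all 6 stages. Fitted on the 4 libraries alone, limma called 0 genes in either direction, with 661 higher and 279 lower at an unadjusted p below 0.05. Single libraries decided many of the calls. Without P0 replicate 1, 6 genes rose (Bmp6, Btbd3, C2, Npy2r, Rnf141 and Ttc14) and 2 fell (Bcl11a and Hmga2). Of the 134 genes that rose, 45 were still called without P0 replicate 2, 79 without E16.5 replicate 1 and 90 without E16.5 replicate 2. Of the 25 that fell, 12, 10 and 11 were still called. The scaled numbers of the P0 and E16.5 libraries did not overlap for 1799 genes with P0 higher (27.1%) and 1244 with P0 lower (18.7%), which is the background against which each gene with separate stages is read.

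**Figure D1:**
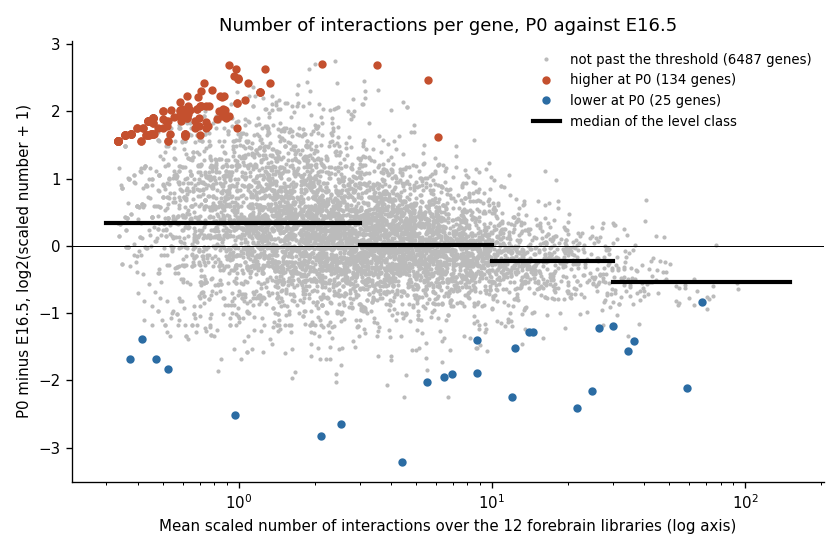
Difference between P0 and E16.5 in log2(scaled number of interactions + 1) for each of the 6646 genes tested, against its mean scaled number over 12 FB libraries (log axis), with the 134 genes that rose and the 25 that fell in colour and bars at the median of each level class. The genes that rose lie at low numbers, and the class medians fall from 0.34 below a mean of 3 to -0.54 at 30 or more.

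The direction moved with the number of interactions of a gene. The level classes were cut by the mean scaled number over the 12 libraries. The median log2 difference was 0.34 in 3632 genes with a mean below 3, 0.01 in 2326 genes from 3 to 10, -0.22 in 588 genes from 10 to 30 and -0.54 in 100 genes of 30 or more. Unscaled, the same medians were 0.76, 0.48, 0.29 and -0.01, so the fall of the highest class depends on the scaling. Of the 134 genes that rose, 131 were in the lowest class, which held 3632 of the 6646 genes tested. No interaction in either E16.5 library was called for 121 of the 134, beside 249 of all genes tested. The level filter used the mean of the 4 libraries, so such genes passed it only through P0. Their direction was fixed, and their rise is a description. The genes that fell were spread over the classes (7, 6, 7 and 5). With a mean of at least 3 in the 4 libraries required, 0 genes rose and 7 fell by limma, with 131 higher and 210 lower at an unadjusted p below 0.05. DESeq2 called 0 genes higher and 10 lower (58 and 89 at an unadjusted p below 0.05), and edgeR 25 and 42.

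Bcl11a encodes a zinc-finger repressor of cortical projection neurons that also acts in chromatin remodelling complexes. It had 56 and 71 interactions in the E16.5 libraries and 18 and 22 in the P0 libraries, which do not overlap. The pooled calls listed 89 and 37. Its log2 difference was -2.11 (SE 0.26, adjusted p 0.00645 by limma), a 4.43-fold higher scaled mean at E16.5. The call held unscaled (adjusted p 0.000674 by limma) and without any single library, with 0.0493 as the highest adjusted p of those limma fits. The gene lies at chr11:24078056-24174123 (mm10, plus strand), and all its contacts ran downstream of the gene's start. At E16.5, 49 and 51 of them spanned over 500 kb, and at P0 all 18 of replicate 1 and 18 of the 22 of replicate 2 did. Of single pairs of bins, 9 were called in all 4 libraries, 18 in both E16.5 libraries and neither P0 library, and 0 the other way round. None of the other ends held a protein-coding TSS. The neighbouring gene A830031A19Rik, which shares a TSS bin with Bcl11a, went from 21 and 31 to 7 and 7 and is not a separate result.

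Cited2, a transcriptional co-activator of upper-layer neurons and their progenitors, lost most of its contacts. It had 40 and 48 interactions at E16.5 and 14 and 8 at P0, and the pooled calls listed 57 and 21. The log2 difference was -2.42 (SE 0.31, adjusted p 0.00645 by limma), and the adjusted p without P0 replicate 1 was 0.0667. Nearly all its contacts lay upstream of the gene at chr10:17723218-17725674, 39 and 46 of them at E16.5 and 13 and 8 at P0. In single pairs of bins, 5 were called in all 4 libraries, 17 in both E16.5 libraries alone and 0 in both P0 libraries alone. The farthest reached 1000 and 970 kb at E16.5 and 740 kb in both P0 libraries.

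Hmga2 encodes an architectural chromatin protein of young neural progenitors whose level falls as they age. It had 10 interactions in each E16.5 library and 3 and 1 at P0. Few were the same pairs of bins: 1 was called in all 4 libraries, 2 in both E16.5 libraries alone and 0 in both P0 libraries alone. The pooled numbers were 14 and 2. The log2 difference was -2.24 (SE 0.29, adjusted p 0.00645 by limma), and the call held without any single library. Gli3, a Hedgehog-pathway factor that patterns the dorsal FB, had 11 and 15 interactions at E16.5 and 6 and 5 at P0, a log2 difference of -1.51 (SE 0.27, adjusted p 0.0147 by limma). Its pooled numbers were 16 and 15, a fall of 1 interaction. Of its pairs of bins, 5 were called in both E16.5 libraries alone and 1 in both P0 libraries alone.

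**Figure D2:**
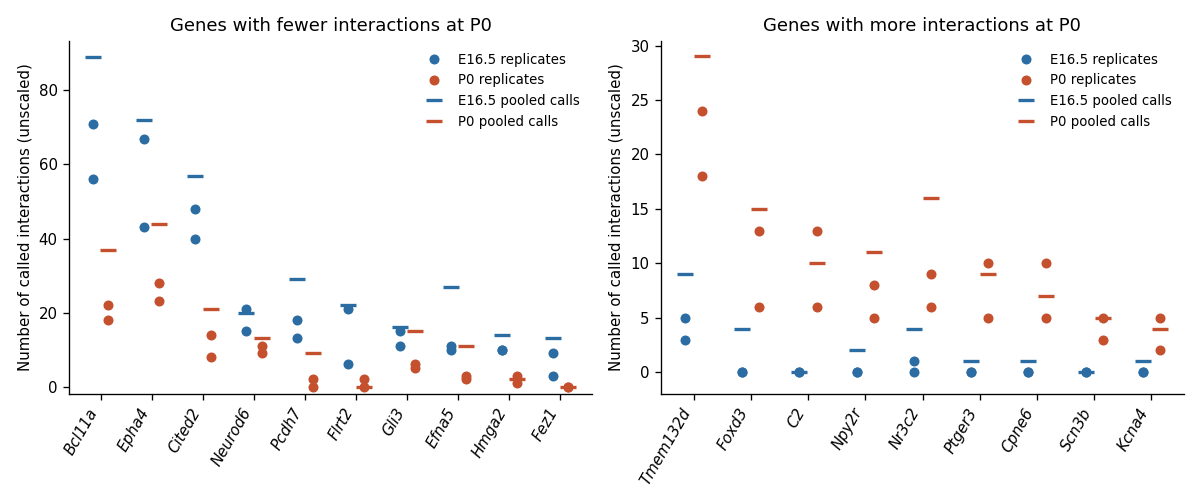
Unscaled number of called interactions per gene in each library (points, 2 per stage) and in the authors' pooled calls (dashes), at E16.5 and P0. On the left Bcl11a fell from 56 and 71 to 18 and 22; Neurod6 is shown there without having passed the test, and on the right Npy2r, Scn3b and Kcna4 lay at 0 in both E16.5 libraries.

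Some other genes that fell have roles in cell adhesion and axon growth, an observation made after their values were seen. Pcdh7, a protocadherin, had 13 and 18 interactions at E16.5 and 0 and 2 at P0, with pooled numbers of 29 and 9. Its log2 difference of -3.21 (SE 0.52, adjusted p 0.0108 by limma) was the largest in this direction. Flrt2, a receptor for Unc5 proteins in migrating neurons, had 6 and 21 at E16.5 and 0 and 2 at P0, and its E16.5 libraries differed widely from each other. Its pooled numbers were 22 and 0, and the adjusted p was 0.0228 (log2 difference -2.82, limma). Fez1, which links cargo to kinesin in growing axons, had 3 and 9 at E16.5, 0 in both P0 libraries, and 13 and 0 in the pooled calls. Single pairs of bins called in both E16.5 libraries alone numbered 6 for Pcdh7, 2 for Flrt2 and 1 for Fez1. None of the 3 genes had a pair in both P0 libraries alone.

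The ephrin system was represented by a ligand and a receptor. Efna5, the ligand ephrin-A5, had 11 and 10 interactions at E16.5 and 2 and 3 at P0, with pooled numbers of 27 and 11 (log2 difference -2.02, SE 0.39, adjusted p 0.0184 by limma). Each E16.5 library had 8 contacts downstream of its TSS and each P0 library 0, while the pooled P0 calls held 8. Of its pairs of bins, 2 were called in all 4 libraries and 1 in both E16.5 libraries alone. The E16.5 libraries thus shared at most 1 downstream contact. Epha4, an ephrin receptor of cortical axons, had 43 and 67 at E16.5 and 23 and 28 at P0, with pooled numbers of 72 and 44. Its log2 difference was -1.56 (SE 0.29), with an adjusted p of 0.0154 by limma scaled and 0.054 unscaled. Of its pairs of bins, 13 were called in both E16.5 libraries alone and 0 in both P0 libraries alone. Robo2, the Slit receptor, had 12 and 23 at E16.5 and 5 and 6 at P0 and did not pass (adjusted p 0.212 by limma).

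The remaining named genes with fewer interactions had small numbers. Ccn4, a secreted matricellular protein, went from 5 and 7 to 0 and 0. Evx1, a homeobox factor of spinal interneurons, went from 8 and 4 to 1 and 1, and its pooled numbers were 13 and 2. Frem1, an extracellular matrix protein, went from 16 and 14 to 9 and 2, and unscaled it did not pass (adjusted p 0.121 by limma). Sirt4, Sla, Atg10 and Pigx had 8 or fewer interactions in every E16.5 library and 2 or fewer in every P0 library. All 25 genes that fell had lower pooled numbers at P0, beside 1669 of the 6646 genes tested. The pooled calls use the same libraries that chose these genes. Of the 25, 5 had no interaction in either P0 library (Fez1, Ccn4, Sla, Atg10 and Pigx), beside 15 of all genes tested. These passed the level filter only through E16.5, so their direction was fixed.

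**Figure D3:**
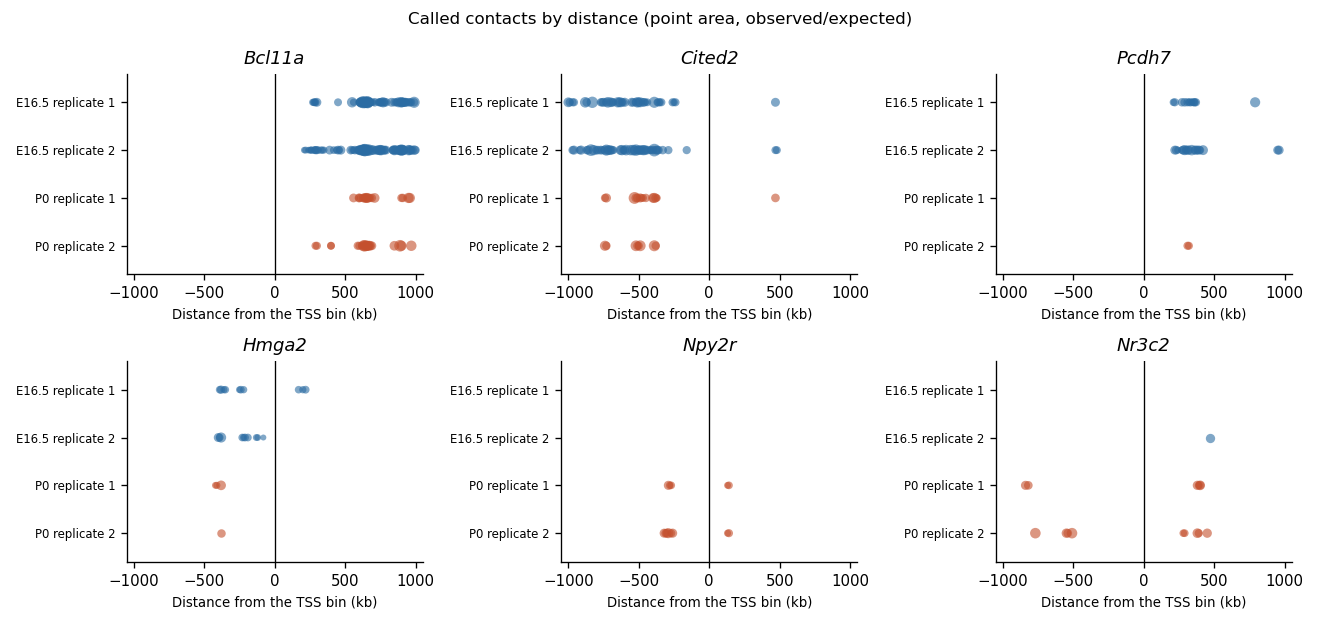
Called contacts of 6 genes by distance from their TSS bin (kb, downstream to the right along the gene's strand) in the 4 libraries, with the point area proportional to the observed over expected ratio. The downstream contacts of Bcl11a and the upstream contacts of Cited2 thin out in both P0 libraries, and Npy2r has contacts in the P0 rows alone.

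The genes that rose were led by genes with no called interaction at E16.5. Npy2r, a neuropeptide Y receptor of neurons, had 0 in both E16.5 libraries and 5 and 8 at P0, with pooled numbers of 2 and 11. It was at 0 in every embryonic library, so it passed the level filter only through P0 and its direction was fixed. Its log2 difference was 2.31 (SE 0.36, adjusted p 0.0094 by limma) on the log2(scaled number + 1) scale, which understates changes from 0. It was past the threshold without P0 replicate 1 (adjusted p 0.0223 by limma), and without P0 replicate 2 it fell below the level filter and had no value. Its contacts reached at most 290 and 320 kb, to both sides of the gene at chr3:82538383-82548084, and 4 pairs of bins were called in both P0 libraries and neither E16.5 library.

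Of the ion channel genes, Scn3b and Kcna4 rose. Scn3b, a beta subunit of voltage-gated sodium channels, had 0 and 0 interactions at E16.5 and 5 and 3 at P0, with pooled numbers of 0 and 5 (adjusted p 0.0094 by limma). Kcna4, a voltage-gated potassium channel, had 0 and 0 at E16.5 and 5 and 2 at P0 (adjusted p 0.0147 by limma). Both fell below the level filter without either P0 library, so those 2 fits gave them no value. Both were at 0 in every embryonic library, so they passed that filter only through P0 and their direction was fixed. Kcnj6, an inward rectifier that opens under G-protein signals, had 8 and 3 at E16.5 and 21 and 20 at P0, with 9 and 27 in the pooled calls. It did not pass scaled (adjusted p 0.171) and did unscaled (adjusted p 0.0202, limma), and 9 of its pairs of bins were called in both P0 libraries alone against 0 in both E16.5 libraries alone.

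Nr3c2, the mineralocorticoid receptor, which binds corticosterone in forebrain neurons, had 0 and 1 interactions at E16.5 and 6 and 9 at P0. The pooled numbers were 4 and 16. The log2 difference was 2.02 (SE 0.42, adjusted p 0.0261 by limma), and the adjusted p rose to 0.103 without P0 replicate 1, 0.0802 without P0 replicate 2 and 0.0858 without E16.5 replicate 1. Nr3c1, the glucocorticoid receptor, had 1 and 3 at E16.5 and 18 and 8 at P0 and did not pass (adjusted p 0.394 by limma). Hsd11b1, which regenerates active glucocorticoid, had 0 and 0 at E16.5 and 3 and 4 at P0 (adjusted p 0.0803 by limma).

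Other named genes that rose have varied roles. C2, a complement component, had 0 and 0 interactions at E16.5 and 13 and 6 at P0, with 0 and 10 in the pooled calls (log2 difference 2.69, SE 0.32, adjusted p 0.00645 by limma). Cpne6, a calcium-dependent membrane-binding protein of neurons, and Ptger3, a prostaglandin E receptor, each had 0 and 0 at E16.5 and 10 and 5 at P0. Ttc14 had the same 4 numbers, with pooled numbers of 5 and 13. C2, Cpne6, Ptger3 and Ttc14, and Foxd3 and Phf21a below, were at 0 in both E16.5 libraries. They passed the level filter only through P0, so their direction was fixed. C2 and Ttc14 were at 0 in every embryonic library. Foxd3, a factor of neural crest cells, had 0 and 0 at E16.5 and 13 and 6 at P0, but its pooled E16.5 calls held 4 and it had scaled means of 6.67, 5.55 and 3.40 at E13.5, E14.5 and E15.5. Phf21a, a reader of unmethylated H3K4, had 0 and 0 at E16.5 and 12 and 6 at P0, while the pooled E16.5 calls held 9.

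Several of these genes serve every cell. Haus5, a subunit of the augmin complex of the spindle, had 0 and 0 at E16.5 and 10 and 6 at P0. Sf3b2, a splicing factor, had 0 and 0 and then 6 and 7. Fen1, a DNA repair nuclease that shares its TSS bins with Tmem258, Alkbh3, a DNA demethylase, Usf2, a transcription factor, Add3, an actin-binding adducin, and Vwce had 0 or 1 interaction in each E16.5 library and from 4 to 14 in each P0 library. Haus5, Sf3b2, Fen1, Usf2, Add3 and Vwce were at 0 in both E16.5 libraries, so they passed the level filter only through P0. Their direction was thus fixed. Alkbh3 had scaled means of 7.23, 8.23, 6.53 and 4.30 from E12.5 to E15.5, beside 6.63 at P0. Gpr37, an orphan receptor of glia and neurons, had 1 and 0 at E16.5 and 11 and 8 at P0, but 12 and 14 in the pooled calls. Across all 134 genes, 109 had more interactions in P0 replicate 1 than in replicate 2, as had 4989 of the 6646 genes tested. The pooled calls moved the same way for 133 of the 134, beside 4281 of the 6646 genes tested. They use the same libraries that chose these genes, so they are not a separate check. In the pooled E16.5 calls 33 of the 134 were at 0, beside 139 of all genes tested.

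Tmem132d, named after its values were seen, had the highest number at P0 among the genes that rose. This neuronal membrane protein gene had 3 and 5 interactions at E16.5 and 24 and 18 at P0, with pooled numbers of 9 and 29. Its log2 difference was 1.62 (SE 0.37, adjusted p 0.0447 by limma). The scaled mean was 9.15 at E14.5, 6.3 at E15.5 and 3.55 at E16.5, then 12.8 at P0.

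**Figure D4:**
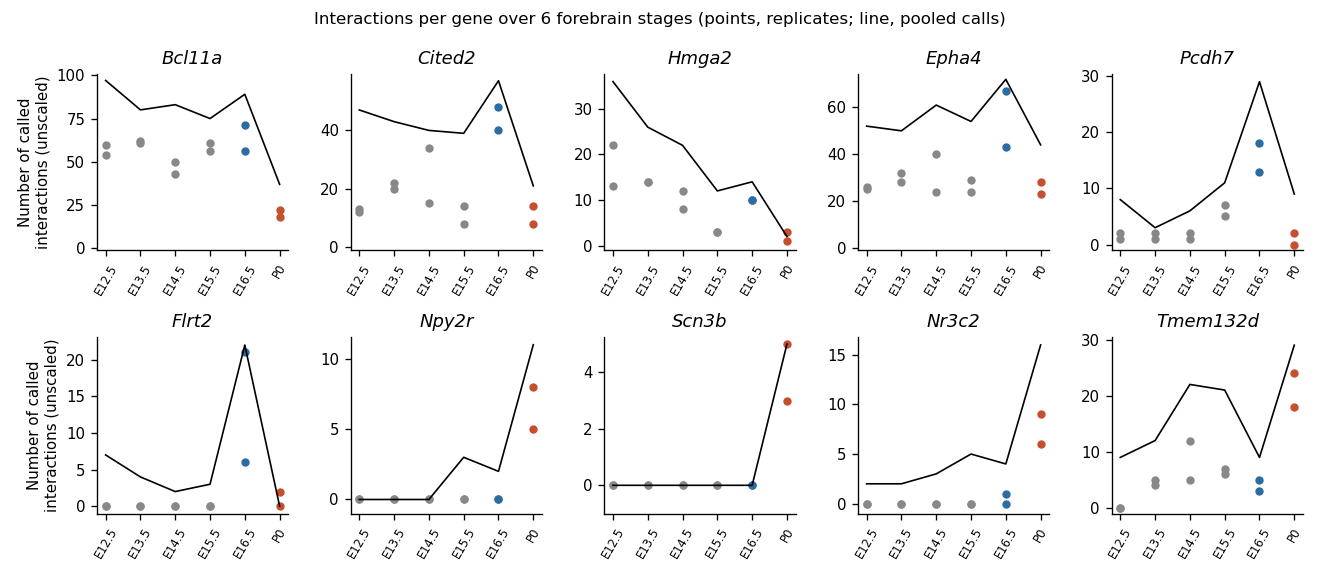
Unscaled number of called interactions over the 6 FB stages for 10 genes (points, 2 replicate libraries per stage; line, pooled calls). Bcl11a had 43 to 71 interactions in every embryonic library and 18 and 22 at P0, Pcdh7 and Flrt2 peaked at E16.5, and Npy2r and Scn3b had interactions at P0 alone among the replicate libraries.

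The earlier FB stages placed the differences in time. Bcl11a had from 43 to 71 interactions in the 10 embryonic libraries, before 18 and 22 at P0. Its scaled mean was 107 at E12.5, where the libraries hold fewer calls, 68.3 at E13.5 and between 52.6 and 56.5 from E14.5 to E16.5, then 12.8 at P0. The scaled mean of Hmga2 went from 32.2 at E12.5 through 15.6 and 11.1 to 2.89 at E15.5, stood at 8.92 at E16.5 and was 1.13 at P0. Both were thus lowest at P0 of the 6 stages. Pcdh7 and Flrt2 instead peaked at E16.5: Pcdh7 had scaled means from 1.63 to 5.83 at the 4 earlier stages and 13.8 at E16.5, and Flrt2 had no call in the replicates of the 4 earlier stages and 11.9 at E16.5. The pooled calls of those stages held 7, 4, 2 and 3 for Flrt2. Cited2 ran from 10.8 to 26.5 at the earlier stages and reached 39.2 at E16.5 before 6.51 at P0. Of the 25 genes that fell, 16 had their highest embryonic scaled mean at E16.5, against 1864 of the 6646 genes tested, and 17 had a higher scaled mean at E12.5 than at P0, against 2231. The E16.5 and P0 values chose these genes, so both counts are descriptions and support nothing. Of the 134 genes that rose, 49 were at 0 in all 10 embryonic libraries, Npy2r, C2, Ttc14, Scn3b and Kcna4 among them, against 56 of the 6646 genes tested. Like all 121 genes that rose from 0 in both E16.5 libraries, these passed the level filter only through P0, so their direction was fixed. They also had no spread at 5 of the 6 stages, and this count supports nothing.

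The gene lists were read by how many members rose, fell or did not pass, and by the median log2 difference beside 0.12 (scaled) and 0.56 (unscaled) over the same 6646 genes. The factors of cortical projection neurons had the lowest median of the 17 lists. Of 30 such genes, 29 were tested, 0 rose and 1 (Bcl11a) fell, beside 2.02% and 0.376% of all genes tested. The difference was below 0 for 28 of the 29, with a median of -0.70, which was -0.17 unscaled. This list holds genes with many interactions, which lay lower over all genes too. In the level class from 10 to 30, its 13 members had a median of -0.71 beside -0.22 over all 588 genes, and in that of 30 or more its 8 members had -0.70 beside -0.54 over all 100 genes. All 21 were below 0, as were 72.8% and 87% of all genes of those classes. Their summed numbers were 846 and 860 at E16.5 and between 670 and 787 at P0, and 27 of the 29 had fewer interactions in the pooled P0 calls, where the sum was 1204 at E16.5 and 963 at P0. Over all genes tested 1669 had fewer and 4281 more in the pooled P0 calls, and in the 2 highest level classes 31.3% and 63% had fewer. Neurod6, a bHLH factor of excitatory neurons, had 21 and 15 at E16.5 and 9 and 11 at P0 and did not pass (adjusted p 0.106 by limma). Its numbers at the 2 stages did not overlap, scaled or unscaled. Etv1, with 5 and 4 at E16.5 and 10 and 5 at P0, was the exception above 0. The summed number of the 6 excitatory neuron markers was 101 and 84 at E16.5 and 65 in each P0 library. Inhibitory neuron markers summed to 156 and 130 and then 186 and 152, and progenitor markers to 112 and 88 and then 127 and 95. Scaled, the excitatory sums were 91.92 and 73.33 and then 32.69 and 48.58. Those of the FB identity markers were 248.5 and 235.7 and then 161.4 and 188.4. Whether cell makeup has a part in these numbers was not tested.

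**Figure D5:**
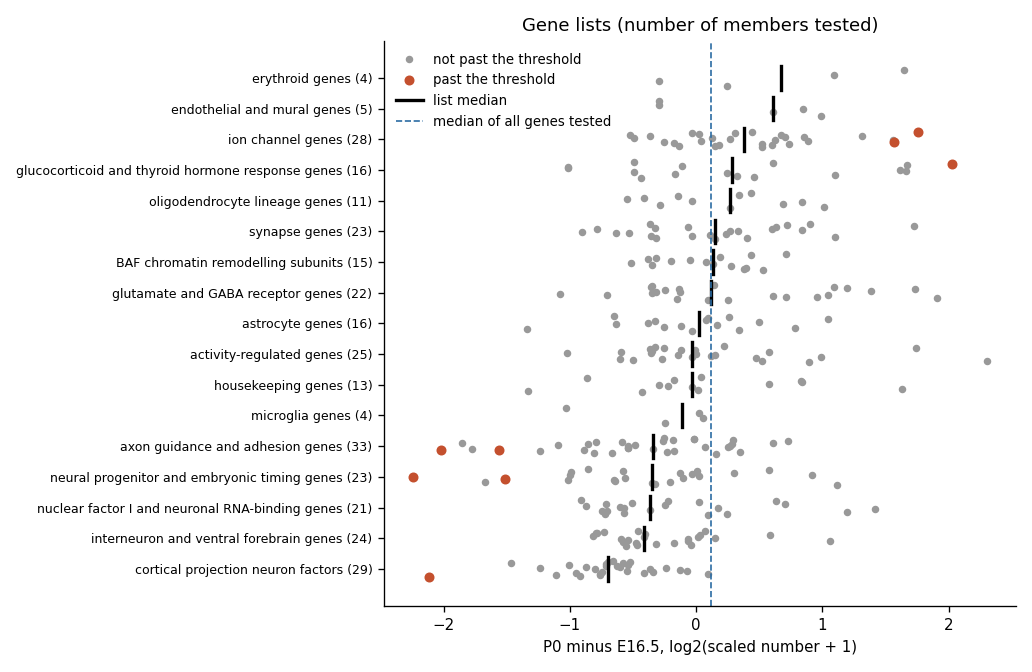
Log2 difference between P0 and E16.5 in the scaled number of interactions for each tested member of 17 gene lists (points), with members past the threshold in colour, the list median as a bar and the median of all genes tested as a dashed line. The cortical projection neuron list has the lowest median (-0.70), with 28 of 29 members below 0, and the ion channel list has 21 of 28 members above 0.

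Lists of the ventral FB and of progenitors held more members below 0 than above. Of 24 tested interneuron and ventral FB genes, 0 rose and 0 fell, 18 lay below 0 and the median was -0.41 scaled and 0.05 unscaled. Their pooled numbers went up for 13 and down for 11. Of 23 progenitor and timing genes, 0 rose and 2 fell (Hmga2 and Gli3), with a median of -0.35. Cdk6, a cell cycle kinase, had 10 and 9 interactions at E16.5 and 5 and 2 at P0 without passing (adjusted p 0.282 by limma). Of 33 axon guidance and adhesion genes, 0 rose and 2 fell (Epha4 and Efna5), and the median was -0.34. Of 21 nuclear factor I and neuronal RNA-binding genes, 0 passed in either direction and the median was -0.36. These 4 medians are all below that of all genes, scaled and unscaled, and above 0 unscaled (0.05 to 0.16 beside 0.56). By level class, in the same order, the lists had -0.02, -0.56, -0.26 and -0.11 from 3 to 10, beside 0.01 over all genes. From 10 to 30, each lay below the -0.22 of all genes. At 30 or more, with 2 to 5 members each, they had -0.58, -0.35, -0.54 and -0.72 beside -0.54. Below 3 they lay on both sides of the 0.34 of all genes.

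The ion channel list had a median above that of all genes, while the other lists of neuronal function lay close to it or below. Of 28 tested ion channel genes, 2 rose (Scn3b and Kcna4) and 0 fell, 21 were above 0 and the median was 0.38. The 2 that rose passed the level filter only through P0, so their count supports nothing. Pooled numbers went up for 18 and down for 7, beside 4281 and 1669 of the 6646 genes tested. The 14 members with a mean below 3 had a median of 0.66 beside 0.34 over all genes of that class. The 9 from 3 to 10 had 0.12 beside 0.01, and the 5 from 10 to 30 had 0.04 beside -0.22. Of 23 synapse genes, 0 passed and the median was 0.15, and Dlg2, the postsynaptic scaffold PSD-93, had 5 and 4 at E16.5 and 18 and 14 at P0 (adjusted p 0.558 by limma). Of 22 glutamate and GABA receptor genes, 0 passed and the median was 0.12. Gabra5, a GABA receptor subunit, came closest with 0 and 0 at E16.5 and 5 and 4 at P0 (adjusted p 0.0515 by limma). Of 25 activity-regulated genes, 0 passed and the median was -0.03. Bdnf, a growth factor induced by activity, had 2 and 0 at E16.5 and 20 and 7 at P0, with pooled numbers of 10 and 25 (log2 difference 2.31, SE 0.79, adjusted p 0.202 by limma). Nr4a1, an immediate early nuclear receptor, had 1 and 1 at E16.5 and 18 and 4 at P0 (adjusted p 0.326 by limma). In both genes P0 replicate 1 was far above replicate 2.

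Of 16 glucocorticoid and thyroid hormone response genes, 1 rose (Nr3c2), 0 fell and the median was 0.28, and 12 had more interactions in the pooled P0 calls against 1 with fewer, beside 4281 and 1669 of all genes tested. In the other lists no member passed. The medians were 0.03 in 16 astrocyte genes, 0.27 in 11 oligodendrocyte genes, 0.13 in 15 subunits of the BAF chromatin remodelling complex and -0.03 in 13 housekeeping genes. Few members were tested among microglia genes (4, median -0.11), endothelial and mural genes (5, median 0.61) and erythroid genes (4, median 0.67), whose defining markers were at or near 0.

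Whole call sets differed little in geometry. The median distance was 300 and 290 kb at E16.5 and 290 and 280 kb at P0 (exact permutation p 0.667), and the values overlapped. Both ends held a promoter bin in 15.1% and 16.6% of E16.5 calls and 18.4% and 17.2% of P0 calls, without overlap (15.9 ± 1.06 and 17.8 ± 0.85, SD, n = 2 each, exact permutation p 0.333). In single pairs of bins, 14749 were called in all 4 libraries, 7859 in both P0 libraries and neither E16.5 library, and 2131 in both E16.5 libraries and neither P0 library. With the 35291 calls of lowest FDR in each library, the latter numbers were 3583 and 3623, so their balance moved with the total of calls. In that equal set, P0-restricted pairs joined promoter bins at both ends in 21.2% and spanned a median of 250 kb. E16.5-restricted pairs did so in 10.8% and spanned 320 kb.

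The share of interactions with CTCF at both ends depended on the peak list. With the first list of each stage it was 34.9% and 33.0% at E16.5 and 40.8% and 42.0% at P0, a difference of 7.5 percentage points (exact permutation p 0.333). With the second list the difference was -10.4, and with the E16.5 peaks applied to both stages it was -0.65. The lists hold 47514 and 46337 autosomal peaks at E16.5 and 61474 and 31927 at P0, and P0 has 1 CTCF library. No direction is read from this share. At the genes, a CTCF peak of E16.5 lay in a TSS bin of 70.9% of the genes that rose, 76.0% of those that fell and 77.8% of all genes tested.

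Contact strength was compared in the 14749 pairs of bins called in all 4 libraries, where a missing call cannot decide the result. This choice leaves out 7859 pairs called in both P0 libraries alone and 2131 in both E16.5 libraries alone. A low number of changed pairs is thus partly set by the choice. Among the pairs kept, limma on log2 of the observed over expected ratio gave 11 stronger (0.0746%) and 2 weaker (0.0136%) at P0. At an unadjusted p below 0.05 there were 1343 and 290, and the median log2 difference over all pairs was 0.11. Without single libraries 0 to 8 pairs were stronger and 0 or 1 weaker, with 0 and 0 when E16.5 replicate 2 was left out.

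Both weaker pairs lay beside transcription factor genes of the nervous system. The first joined chr9:48640001-48650000 to chr9:48860001-48870000, 220 kb apart, on both sides of Zbtb16, a factor of progenitors. Its observed over expected ratio was 9.0 and 7.38 at E16.5 and 2.96 and 3.46 at P0 (counts of 42 and 25 and then 16 and 15), a log2 difference of -1.35 (SE 0.31, adjusted p 0.0499 by limma). The pooled ratios were 8.5 and 2.76. Zbtb16 itself had 11 and 12 interactions at E16.5 and 13 and 10 at P0. The second joined chr4:81560001-81570000 to chr4:82510001-82520000, 950 kb apart, the latter inside Nfib, a factor of cortical glia and axon tracts. Its ratio was 20.4 and 22.1 at E16.5 and 8.35 and 9.53 at P0 (log2 difference -1.25, SE 0.27, adjusted p 0.0266 by limma).

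A CTCF site matching a 19-bp matrix was found within the peak of both ends of the Zbtb16 pair. These sites are shown because the ends of a weaker contact carry them facing each other, left site on the plus strand and right site on the minus strand. The 30 bases around each are written 5′ to 3′ on the strand of the site (mm10), with the matched 19 bases in capitals, and both sites of the Nfib pair and a site of a stronger pair are given for comparison.
Left of Zbtb16, between genes, chr9:48646383-48646401, plus strand: agcacTAGCCACTAGGTGGAGACAgagtcc
Right of Zbtb16, between genes, chr9:48860670-48860688, minus strand: ccttcTGGCCACTAGAGGTCGCCAgggcct
Left end of the Nfib pair, between genes, chr4:81564524-81564542, plus strand: tttagAAGTCAGTAGAGGGCGCTGttggca
Nfib end of the same pair, intron of Nfib, chr4:82513310-82513328, plus strand: gggagGAGCCACGAGAGGGCGGGAcctgtg
Tbkbp1 end of a stronger pair, intron of Tbkbp1, chr11:97146924-97146942, minus strand: cgggtGTGCCAGCAGAGGGCGTCCccactc
Both Zbtb16 sites, the left site of the Nfib pair and the Tbkbp1 site point into their pair, and the site inside Nfib, from a peak of P0, points away. Over the ends of the 13 pairs that changed, 13 sites passed the matrix threshold, of which 9 pointed to the other end and 4 away. The CTCF fold enrichment at the left Zbtb16 site was 55.7 at E16.5 and 26.8 at P0, and at the right site 26.7 and 18.3. At the left Nfib-pair site it was 25.5 and 10.1, and at the Tbkbp1 site 19.4 and 24.4. These are values of single lists of peaks, with no test between stages. A site of the matrix was found in 64.7% of 5280 sampled peaks and in 1.00% of windows 5 kb away, and a match is not evidence that it is bound.

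The stronger pairs spanned 70 to 930 kb, and 10 of the 11 had a TSS bin at an end. The pair with the smallest adjusted p joined a bin with TSSs of Atf6b and Fkbpl to that of Skiv2l, 200 kb apart at chr17:34640001-34650000 and chr17:34840001-34850000. Its ratio was 2.38 and 2.15 at E16.5 and 5.87 and 5.47 at P0 (log2 difference 1.33, SE 0.21, adjusted p 0.000545 by limma). The E16.5 ratios lay near the calling limit of 2, and the pooled E16.5 calls did not hold this pair. C2, which rose in number of interactions, lies in the same stretch at chr17:34862604-34898265. The pair of Dusp23, a phosphatase, and Cadm3, a neuronal adhesion molecule, 730 kb apart, had 4.15 and 4.47 at E16.5 and 10.6 and 15.2 at P0 (adjusted p 0.019 by limma). A pair from Nkx2-2, a factor of oligodendrocyte precursors, over 560 kb had 5.84 and 5.24 at E16.5 and 13.1 and 15.6 at P0 (adjusted p 0.0223 by limma).

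Other stronger pairs also involved neuronal genes. Plxnb1, a semaphorin receptor, and Nme6 were joined over 740 kb, with ratios of 4.47 and 4.17 at E16.5 and 13.9 and 9.83 at P0. Astn2, a protein of neuron migration along glia, was joined to a bin inside its own gene over 750 kb, with 5.73 and 8.23 at E16.5 and 21.5 and 14.2 at P0. Pairs from Igfbp5, Tbkbp1, Dusp1, Ppp1r26 and Dtx4 and 1 pair between L3mbtl4 and Tmem200c made up the rest, with fold changes between 2.04 and 3.15. Of the 11 stronger pairs, 8 had a ratio above 2 in the pooled E16.5 calls, and all 11 were in the pooled P0 calls.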

How the data were processed

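H3K4me3 PLAC-seq reads were aligned to mm10 by the authors (BWA, SAMtools and Juicer are named in the submitters' processing notes, without versions) and interactions were called with MAPS. The deposited files list, per called pair of 10-kb bins, how many read pairs joined it (a count). Beside it stands the signal the authors' regression predicted for that pair, as deposited. The authors also derived an FDR, a q-value, for every call. The authors tested pairs with an H3K4me3 peak of the stage at an end, so a missing pair may not have been tested. Those peaks were not used here. For CTCF peaks, fold enrichment against the input library comes from the authors' MACS2 runs. Pooled calls were downsampled by the authors to equal usable reads.

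Files were read with Python 3.11.15 (numpy 2.4.6, pandas 2.3.3, scipy 1.17.1, matplotlib 3.10.9) and models were fitted with limma 3.58.1, DESeq2 1.42.0 and edgeR 4.0.16 under R 4.3.3. TSSs of 20807 protein-coding genes on the 19 autosomes came from GENCODE release M21 on GRCm38. Depth was 35291 to 63868 calls per library. Per gene, numbers of interactions were scaled to the median library total and tested over 12 FB libraries on log2(number + 1) with limma's trend option and Benjamini-Hochberg adjustment over all genes with a mean of at least 1. The same was done unscaled. Single values per library were compared by exact permutation, whose smallest p is 0.333. CTCF sites came from a 19-bp matrix estimated from 2000 peaks. On simulated numbers for 5821 genes in this comparison, 0 unchanged genes were called. The simulation held counting (Poisson) error alone, without further spread between replicates. It therefore does not give the rate of false calls in these libraries. Of genes with a mean of 3 or more, 100% of those raised 10-fold, 25% of those raised 4-fold, 42.9% of those lowered 10-fold and 16% of those lowered 4-fold were recovered. Of genes with a mean below 3, 30% of those raised 10-fold and 4% of those raised 4-fold were recovered, and 0% of those lowered.

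Named genes are, per direction, up to 15 with the largest log2 difference among genes that passed, with the pooled numbers in the same direction and no overlap of the stages, list members past the threshold, and up to 2 further members per list given by value. The comparison, its 17 gene lists and its tests were chosen with earlier results of these data known. Alternatives were the scaling, filter, pseudocount, call threshold, tool, libraries entered, replicate block and CTCF list. 2 CTCF alternatives were chosen after seeing the data. Input libraries, contact maps, H3K4me3 peaks and other tissues were not analysed here, and some genes are not reported.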

Additional observations from a re-analysis of the deposited data

How the results depend on the processing

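The number of genes that rose (134) was 612 unscaled, 900 scaled by usable read pairs, 328 with no filter, 66 with the same number of calls per library, 20 with calls below an FDR of 0.001, 25 by edgeR, and 0 by DESeq2, with a mean of at least 3 or with only the 4 libraries compared. The number that fell (25) was 42 by edgeR, 10 by DESeq2, 8 below an FDR of 0.001, 7 with a mean of at least 3 and 0 in the 4 libraries alone. Leaving out 1 library at a time gave 6 to 200 genes higher and 2 to 22 lower, lowest without P0 replicate 1, with 6 to 90 of the 134 and 2 to 12 of the 25 among them. For pairs of bins (11 stronger, 2 weaker), the 4 libraries alone gave 18 stronger, and leaving out 1 library gave 0 to 8 stronger and 0 to 1 weaker. The other counts of genes stayed within 1.5 times the values in the text, but the genes called differed between settings. With no filter, 58 of the 134 and 12 of the 25 were still called, and by edgeR 7 and 18. With a pseudocount of 0.5 they were 118 and 22, and with a replicate block 119 and 22. Of the named genes, 10 of the 18 that rose and 10 of the 17 that fell passed with no filter. Npy2r, Nr3c2, Epha4, Fez1 and Flrt2 did not. The cause was not tested.

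Equal replicate numbers did not mark paired libraries (r = 0.0276 between the deviations of E16.5 and P0, and -0.0447 to 0.0652 over 15 pairs of stages). With a replicate block 120 genes rose and 24 fell, and 37 pairs of bins were stronger and 4 weaker.

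The difference in the share with CTCF at both ends (7.5 percentage points) turned to -10.4 with the second peak list, -0.645 with the E16.5 peaks at both stages and -0.54 with bins in both first lists. It kept its sign with the other settings, as did total, distance and promoter share. Of the 35 named genes past the threshold, 0 changed direction under any setting. Of those not past it, Aif1 turned to 0.059 scaled by usable read pairs and Dlg2 to -0.21 with the same number of calls. Without single libraries Actl6a ran from -0.40 to 1.46 and Aif1 from -0.61 to 0.12. Depth limits genes with few interactions: below a mean of 3, few planted changes were found.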

Other observations

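The genes below passed the same limma test and were named after their values were seen. Several that fell have high numbers. Fat4, an atypical cadherin of neural progenitors, had 35 and 48 interactions at E16.5 and 25 and 24 at P0 (adjusted p 0.0233 scaled and 0.0621 unscaled by limma). Setbp1, a nuclear protein linked to a neurodevelopmental disorder in humans, had 51 and 59 and then 30 and 28 (adjusted p 0.0187 scaled and 0.133 unscaled by limma). Inhbb, a subunit of activin, had 22 and 21 and then 14 and 10 (adjusted p 0.0162 scaled and 0.0454 unscaled by limma). Btg1, an anti-proliferative factor, had 47 and 59 and then 37 and 29, and Rasgef1b had 87 and 93 and then 85 and 62. The last 2 did not pass unscaled, and Rasgef1b had the smallest difference of the 25 genes (log2 -0.83).

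Among the genes that rose, some serve synapses and transport in neurons. Amph, which bends membranes in endocytosis at synapses, had 0 and 0 interactions at E16.5 and 5 and 2 at P0. Kif1a, a kinesin of synaptic vesicle precursors, had 0 and 0 and then 4 and 3. Syt10, a calcium sensor of secretion, had 0 and 0 and then 4 and 5. Arntl, a transcription factor of the circadian clock, had 0 and 0 and then 5 and 4 (adjusted p 0.00907 by limma). Gata3, with 0 and 0 and then 7 and 4, had 12 interactions in the pooled E16.5 calls and 15 in those of P0. Neighbouring genes also rose together. Zbtb12, which lies within the span of C2 on chromosome 17, had 0 and 0 and then 5 and 4. Ddb1, next to Vwce on chromosome 19, had 0 and 0 and then 9 and 4. Amph, Kif1a, Syt10, Arntl, Gata3, Zbtb12 and Ddb1 were all at 0 in both E16.5 libraries. Each thus passed the level filter only through P0, and its direction was fixed. Amph, Arntl and Zbtb12 were at 0 in every embryonic library.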
